A study of Mus musculus with 32 samples.

Results

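The insulin receptor and the proteins that carry its signal were followed in mouse liver through 10 genes, listed by name: Insr, Irs1, Irs2, Pik3r1, Akt1, Akt2, Foxo1, Foxo3, Trib1 and Grb10. All 10 were measured, among 22180 genes in all, on 32 Affymetrix Mouse Gene 2.1 ST arrays, each holding the liver RNA of a separate mouse, and a gene with several probe sets was read from the probe set with the highest mean. The mice were wild-type male C57BL/6NTac animals of 14 weeks. They fasted for 10 h and then received by gavage either 2 g/kg of palm oil, a dietary fat high in palmitate, or water as the vehicle, called control here. In clamped mice a hyperinsulinemic-euglycemic clamp was begun 6 h after the gavage: the mice received 15 pmol/kg/min of insulin together with enough glucose to hold blood glucose at its target. Basal mice received no insulin, and their livers were taken 6 h after the gavage under isoflurane. The groups held 9 palm oil clamped, 7 control clamped, 9 palm oil basal and 7 control basal mice. Clamped mice also had a jugular catheter placed days earlier, received tracer glucose for 110 min before the insulin, were killed later and with ketamine and xylazine, and carry lower numbers in their labels (15 to 32, against 33 to 52 in basal mice), whose meaning the labels do not give. Insulin, surgery, tracer, time, anaesthetic and label number therefore cannot be told apart in any clamped-minus-basal difference.

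Insulin binds its receptor, a tyrosine kinase encoded by Insr, which phosphorylates the docking proteins IRS1 and IRS2. These recruit PI3-kinase, whose regulatory subunit p85 alpha is the product of Pik3r1, and the lipid it makes activates the AKT kinases. In hepatocytes AKT2 is the main form, and AKT phosphorylates the transcription factors FOXO1 and FOXO3 and keeps them out of the nucleus. In the fasted liver nuclear FOXO1 drives genes of glucose output and fasting such as G6pc and Igfbp1, and it also drives Irs2. GRB10 is an adaptor that binds the activated receptor and inhibits it. TRIB1 is a pseudokinase that brings other proteins, among them the transcription factor C/EBP alpha, to the ubiquitin ligase COP1.

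The starts of Irs1 and Irs2 and of Igfbp1, a well-known FOXO1 target, are shown because Irs1 and Irs2 differed between clamped and basal mice in opposite directions. Each line gives 150 bases that end at the base before the RefSeq start (GRCm38.p6), 5′ to 3′ on the strand of the gene. Capitals mark CAAAACAA, a form of the FOXO-binding insulin response element, on either strand, and CACGTG, the E-box. The E-box was chosen after the sequences were seen.
Irs1 (chr1:82291440-82291589, minus strand): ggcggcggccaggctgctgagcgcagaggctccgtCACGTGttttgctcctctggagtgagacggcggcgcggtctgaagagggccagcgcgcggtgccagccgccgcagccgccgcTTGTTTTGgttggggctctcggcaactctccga
Irs2 (chr8:11008930-11009079, minus strand): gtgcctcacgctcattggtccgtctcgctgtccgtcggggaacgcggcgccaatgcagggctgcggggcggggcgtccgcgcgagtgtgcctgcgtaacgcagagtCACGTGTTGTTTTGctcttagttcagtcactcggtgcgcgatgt
Igfbp1 (chr11:7197637-7197786, plus strand): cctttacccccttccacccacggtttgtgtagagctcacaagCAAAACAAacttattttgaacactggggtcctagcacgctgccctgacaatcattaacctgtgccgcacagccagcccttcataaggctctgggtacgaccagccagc
On both strands of the 250 bases before each start, CAAAACAA lay in 2.21% of 32851 RefSeq mouse promoters and CACGTG in 6.02%. In Irs1 the FOXO motif lay 33 to 26 bases before the start and the E-box 115 to 110 bases before it. In Irs2 the E-box, 44 to 39 bases before the start, ran directly into the FOXO motif at 38 to 31. In both genes the FOXO motif read on the opposite strand, and in Igfbp1 it read on the strand of the gene, 108 to 101 bases before the start. The table held promoters of 8 of the 10 genes, 14 in all, and it had none for Insr or Trib1. The only other motif found in these 14 was GTAAACA, a second FOXO-bound sequence present in 3.17% of all promoters, in 1 promoter of Akt1 at 161 to 155 bases before the start. TGACGTCA (the cAMP response element, 1.55% of all promoters), TGAGTCA (AP-1, 4.46%) and GCGTGGGCG (EGR1, 0.536%) were not among the letters of these windows. No motif overlapped another.

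Values are log2 expression values, on which a difference of 1 is a 2-fold difference in signal, and a gene was called where its adjusted p over all genes was under 0.05 in limma. Array medians lay between 1.65 and 1.77. The 7 basal arrays with a label number of 44 or higher, called high-numbered here, 3 palm oil and 4 control, had a narrower spread of values (interquartile range 2.44 to 2.54) than the 16 clamped arrays (2.64 to 2.85) or the other 9 basal arrays (2.72 to 2.96). The hepatocyte markers averaged 9.92 to 10.46 on every array, and 2 of 7 rose in clamped mice after either gavage. Pancreatic acinar markers, which liver should lack, averaged over 6 on 12 arrays: 2 palm oil clamped, 1 control clamped, 5 palm oil basal and 4 control basal.

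The insulin receptor substrates and Trib1 were the members that moved under the clamp. In palm oil mice 2 of 10 members passed the test, Trib1 and Irs2, and both rose. In control mice 2 of 10 passed, Trib1, which rose, and Irs1, which fell. Of all genes 7.57% were called in palm oil mice (3.76% rose and 3.80% fell) and 8.75% in control mice (4.66% rose and 4.09% fell), shares at which fewer than 1 of 10 members would be called. These shares take in many dim genes, and shares among genes as bright as the members were not computed. The members were also chosen with earlier results of these data known, so the counts are a description. The median difference of the 10 members was 0.20 in palm oil mice and 0.08 in control mice, against -0.02 over all genes in each. These medians do not show a general rise. Without the high-numbered basal arrays the differences of Insr, Pik3r1 and Akt1 shrank or turned, as given below, and the medians were not recomputed.

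**Figure D1:**
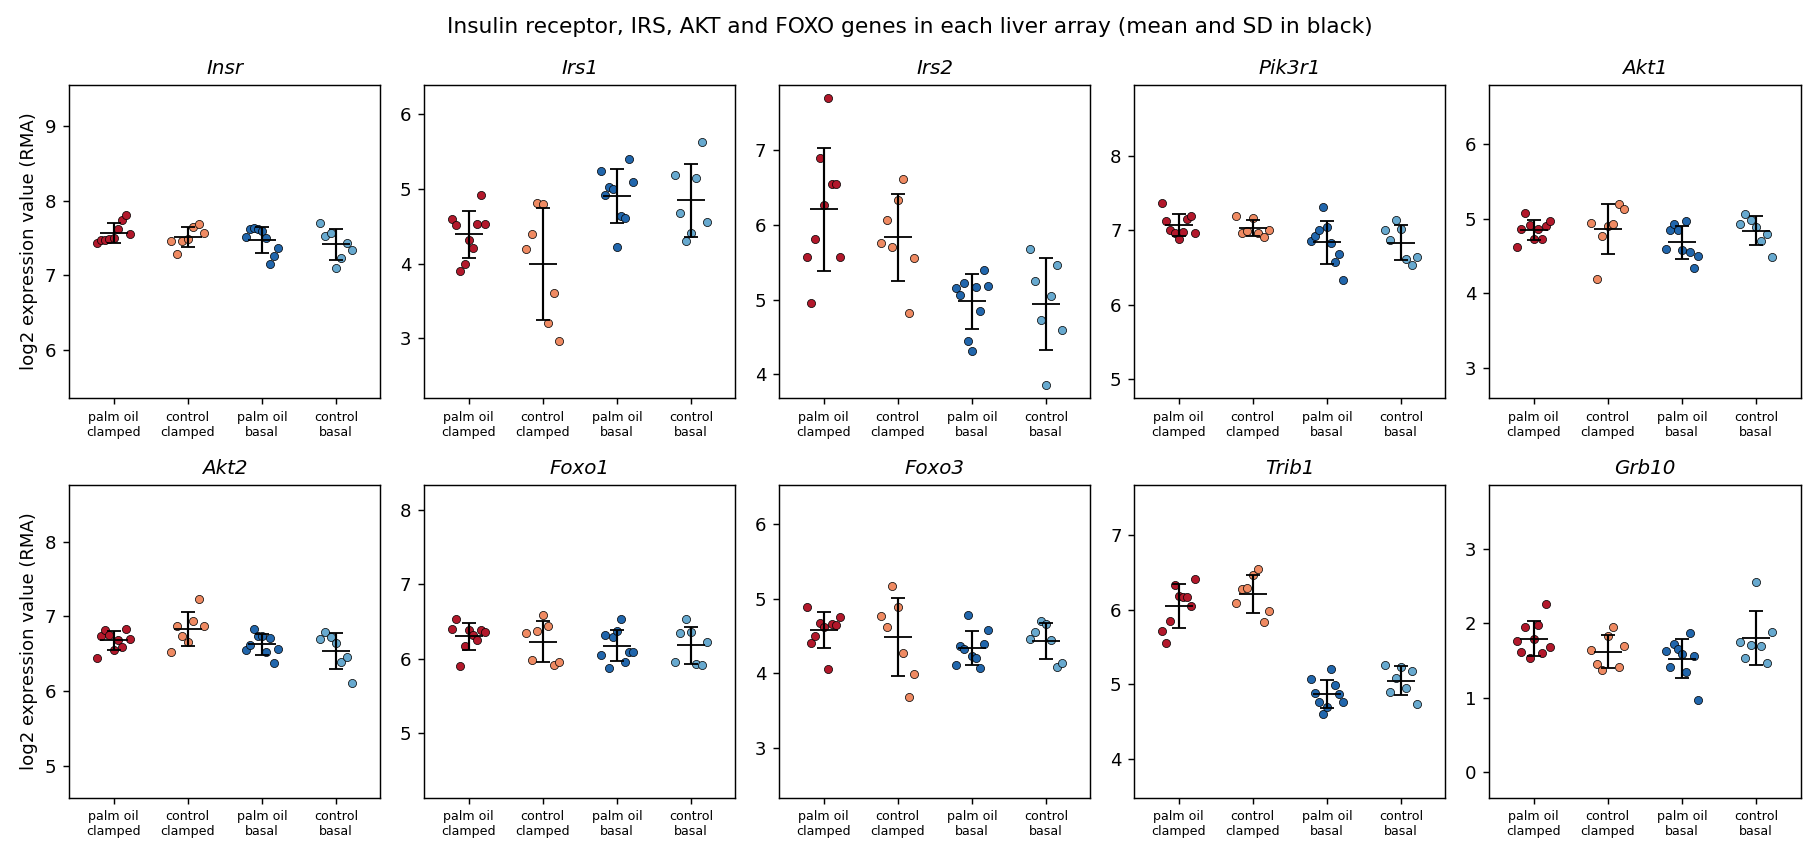
Log2 expression value (y axis) of the 10 genes on each of the 32 arrays, by group (x axis: palm oil clamped, control clamped, palm oil basal, control basal). Each point is a mouse and black bars give the mean and SD. Every panel spans the same number of log2 units. All 16 clamped values of Trib1 lie above all 16 basal ones, Irs2 is mostly higher and Irs1 mostly lower in clamped mice, and the other panels overlap throughout.

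Irs2, the substrate that FOXO1 drives in the fasted liver, was higher in clamped mice. In palm oil mice its lowest, median and highest values were 4.95, 6.27 and 7.71 in clamped livers, against 4.31, 5.15 and 5.40 in basal livers. Of the 9 clamped mice, 8 lay above every basal mouse. The rise was 1.23 ± 0.27 (log2, SE; 2.35-fold, 95% interval 1.60 to 3.44; n = 9 and 9; limma adjusted p = 0.00255). In control mice the values were 4.82, 5.76 and 6.61 in clamped livers, against 3.85, 5.04 and 5.67 in basal livers. Here 5 of 7 clamped mice lay above every basal mouse, and the difference of 0.90 ± 0.31 (1.86-fold, interval 1.205 to 2.87; n = 7 and 7) missed the threshold (adjusted p = 0.0652). The responses of the palm oil and control mice were not shown to differ: their difference was 0.34 ± 0.41, with a 95% interval of -0.50 to 1.17. Irs2 spread most widely in palm oil clamped livers (SD 0.83), against 0.37 in palm oil basal livers, while the SD was 0.58 in control clamped and 0.61 in control basal livers. Without the 12 arrays high in acinar markers the rise in palm oil mice was as large, 1.28, and no longer passed (adjusted p = 0.0841). A further probe set, listed for Irs2 together with 9530052E02Rik, was not used for the gene. It averaged 1.38, below the array medians, and differed by 0.02 ± 0.08 in palm oil and -0.01 ± 0.09 in control mice.

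Irs1, the other main substrate of the receptor in liver, was lower in clamped mice. In control mice its lowest, median and highest values were 2.96, 4.19 and 4.82 in clamped livers, against 4.31, 4.68 and 5.63 in basal livers. Of the 7 clamped mice, 4 lay below every basal mouse and 3 overlapped with them, so the clamped values spread widely (SD 0.75, against 0.49 in basal livers). The fall was -0.85 ± 0.24 (1.80-fold lower; n = 7 and 7; limma adjusted p = 0.022). In palm oil mice the values were 3.89, 4.52 and 4.93 in clamped livers, against 4.22, 5.002 and 5.40 in basal livers, with 3 of 9 clamped mice below every basal mouse. That difference, -0.52 ± 0.22 (1.43-fold lower; n = 9 and 9), did not pass (adjusted p = 0.165), and the responses of palm oil and control mice were not shown to differ (0.33 ± 0.33, interval -0.33 to 0.99).

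A second probe set of Irs1 gave a lower clamped level as well, and the call moved to the other gavage. On it palm oil clamped livers read 2.56, 3.44 and 4.21 (lowest, median, highest), against 3.78, 4.51 and 5.13 in palm oil basal livers, a fall of -0.95 ± 0.27 (n = 9 and 9; limma adjusted p = 0.0199). Control clamped livers read 2.12, 3.77 and 4.49, against 3.40, 4.03 and 4.39 in control basal livers, a difference of -0.63 ± 0.30 (n = 7 and 7; adjusted p = 0.223). The same 3 control clamped mice, replicates 5, 6 and 7, were lowest on both probe sets (3.20, 3.601 and 2.96 on the first, 2.74, 2.12 and 2.40 on the second). After each group's mean was removed, the probe sets correlated over the 32 arrays with r = 0.592, as a description.

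**Figure D2:**
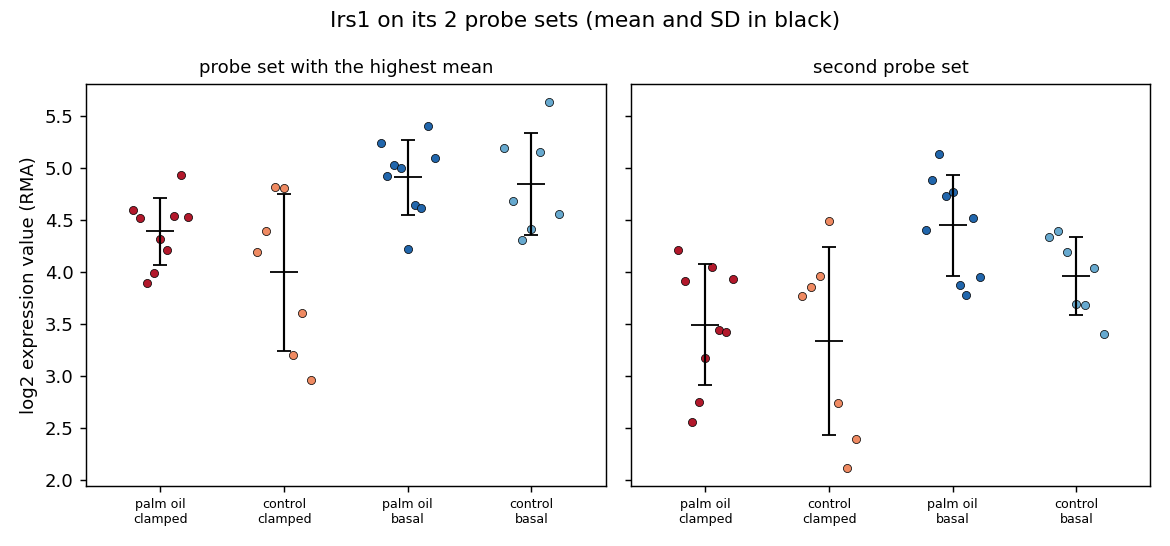
Log2 expression value of Irs1 (y axis) on its probe set with the highest mean (left) and on its second probe set (right), by group (x axis). Points are mice and black bars the mean and SD. Clamped means lie below basal means on both, and 3 control clamped mice lie well below the other 4 on each.

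Averaged over palm oil and control mice, a contrast added after the data were seen, 16.9% of all genes were called (8.39% rose and 8.46% fell) and 3 of the 10 members. Trib1 rose by 1.17 ± 0.09, Irs2 rose by 1.06 ± 0.21 (2.09-fold; limma adjusted p = 2.24e-04), and Irs1 differed by -0.68 ± 0.16 (1.61-fold lower; adjusted p = 0.00239). This fall of Irs1 was past the threshold under every alternative tried but 1: without the 7 basal arrays numbered 44 or higher it was -0.59, with an adjusted p = 0.0517. In control mice alone the call of Irs1 was less stable. It was lost under 9 of 15 alternatives and without control basal replicate 5 or 6 or control clamped replicate 5 or 7, with differences of -0.68 to -0.80 for these 4 and adjusted p = 0.05001 to 0.0776.

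Trib1 gave the clearest separation of the 10. Palm oil clamped livers read 5.55, 6.17 and 6.42 (lowest, median, highest), against 4.604, 4.87 and 5.20 in palm oil basal livers. Control clamped livers read 5.84, 6.27 and 6.55, against 4.73, 5.08 and 5.25 in control basal livers. No clamped mouse overlapped with a basal mouse, whichever gavage either had received. Groups that did not overlap, with the clamped group higher, were seen for 0.866% of all genes in palm oil mice and 1.39% in control mice. The rise was 1.18 ± 0.11 in palm oil mice (2.26-fold, interval 1.93 to 2.66; limma adjusted p = 6.99e-09) and 1.17 ± 0.13 in control mice (2.25-fold, interval 1.88 to 2.70; adjusted p = 1.20e-07). It differed by 0.01 ± 0.17 between palm oil and control mice (interval -0.34 to 0.36), and under every alternative tried it was between 1.09 and 1.24 in these 2 comparisons and past the threshold.

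The receptor, the PI3-kinase subunit, both AKT genes, both FOXO genes and Grb10 passed in neither gavage group. Insr, the receptor itself, differed by 0.09 ± 0.09 in palm oil and 0.10 ± 0.10 in control mice, and its 32 values lay between 7.10 and 7.80. Without the 7 high-numbered basal arrays these differences were -0.02 in palm oil and -0.08 in control mice, so the sign of Insr turned. Pik3r1 differed by 0.23 ± 0.10 in palm oil mice (adjusted p = 0.203) and by 0.20 ± 0.12 in control mice (0.359). Palm oil clamped livers read 6.88 to 7.37 for Pik3r1, against 6.33 to 7.32 in palm oil basal livers. Averaged over the gavages its difference of 0.21 ± 0.08 missed the threshold (adjusted p = 0.0553). Without the high-numbered basal arrays the Pik3r1 difference shrank to 0.08 in palm oil mice, 0.02 in control mice and 0.05 averaged (adjusted p = 0.748 for the last), and with these arrays as a block it was -0.03 in control mice.

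Akt2, the main hepatic AKT gene, differed by 0.05 ± 0.09 in palm oil mice and by 0.29 ± 0.11 in control mice (adjusted p = 0.0838), where 4 of 7 clamped livers lay above every basal one. Without the high-numbered basal arrays the Akt2 difference in control mice was 0.0996 (adjusted p = 0.754). Akt1 differed by 0.16 ± 0.11 in palm oil and 0.02 ± 0.12 in control mice, and by 0.05 in palm oil and -0.13 in control mice without those arrays. Foxo1 differed by 0.12 ± 0.11 in palm oil and 0.05 ± 0.12 in control mice, within a whole range of 5.88 to 6.59. A second, dimmer Foxo1 probe set gave larger differences, 0.25 ± 0.14 in palm oil and 0.20 ± 0.16 in control mice, and passed in neither. On the probe sets with the highest mean, the 95% intervals of Insr, Akt1, Foxo1 and Foxo3 included 0 in both gavage groups. Foxo3 differed by 0.24 ± 0.15 in palm oil and 0.05 ± 0.17 in control mice, and control clamped livers spread widest in it (3.68 to 5.17). Grb10 read between 0.97 and 2.55, a range that contains the array medians and in which log2 differences are compressed, and it differed by 0.27 ± 0.13 in palm oil and -0.18 ± 0.14 in control mice. Without control basal replicate 4, which stood apart in Grb10, the difference in control mice was -0.05. The 95% intervals of these 7 genes stayed within a 2-fold change in both gavage groups.

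**Figure D3:**
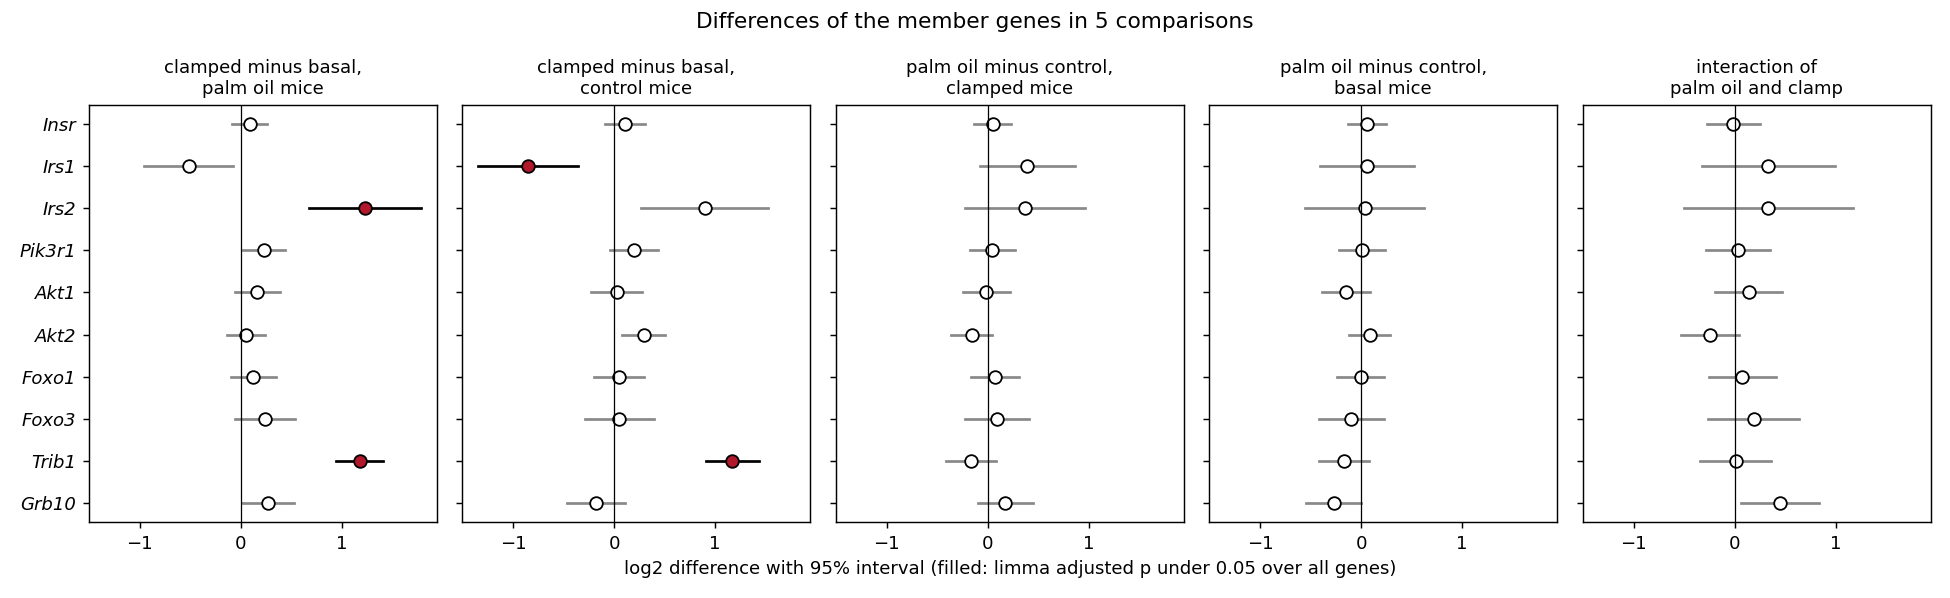
Log2 difference (x axis) with its 95% interval for each of the 10 genes (rows) in 5 comparisons: clamped minus basal in palm oil and in control mice, palm oil minus control in clamped and in basal mice, and the interaction. Filled points have a limma adjusted p under 0.05 over all genes. Only Irs2 and Trib1 in palm oil mice and Irs1 and Trib1 in control mice are filled, and none is in the 3 panels on palm oil.

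Markers of other cell types moved with the clamp as well. Of 9 neutrophil markers 6 rose in both gavage groups, and their mean was 2.98 to 3.75 in palm oil clamped livers, against 1.77 to 2.23 in palm oil basal livers, and 2.72 to 3.69 in control clamped livers, against 1.78 to 2.49 in control basal livers. Ly6g, a defining neutrophil surface marker, stayed at or below 1.81 on every array. Of 7 Kupffer cell markers 2 rose in palm oil and 3 in control mice, and of 7 endothelial markers 1 rose and 1 fell in palm oil mice and 1 rose and 2 fell in control mice. Of 6 stellate cell markers 2 rose and 1 fell in palm oil mice and 0 were called in control mice. Acinar markers had median differences of -2.90 in palm oil and -3.41 in control mice, and 0 of 9 were called. In bulk liver RNA fewer cells of a type and less RNA per cell cannot be told apart. The part of neutrophils and Kupffer cells in the differences of Irs1, Irs2 and Trib1 was not tested. With the acinar marker mean as a term, Irs2 and Trib1 in palm oil mice and Trib1 in control mice kept their calls, and Irs1 in control mice did not (-0.78, adjusted p = 0.0796).

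Palm oil against control was the question of the gavage, and no member passed the test in it. Of all genes 0% were called in clamped mice, in basal mice, averaged over both or in the interaction, and 0 of the 10 members had an unadjusted p under 0.05 in the first 3 of these. In clamped mice the differences of the members lay between -0.16 (Trib1) and 0.39 (Irs1), and in basal mice between -0.27 (Grb10) and 0.08 (Akt2). Without control basal replicate 4 the Grb10 difference in basal mice was -0.15. On the probe sets used, the 95% intervals of all 10 members lay within a 2-fold difference in clamped, in basal and in averaged mice, which for Grb10 holds on a compressed part of the scale.

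The substrates showed no effect of palm oil beyond the spread between mice. Irs1 averaged 4.39 ± 0.32 in palm oil clamped and 4.00 ± 0.75 in control clamped livers (SD, n = 9 and 7), a difference of 0.39 ± 0.23 (SE). Irs2 averaged 6.21 ± 0.83 in palm oil clamped and 5.84 ± 0.58 in control clamped livers, a difference of 0.37 ± 0.29. Both genes were nearly level in basal mice, with 0.06 ± 0.23 for Irs1 and 0.04 ± 0.29 for Irs2. On the second Irs1 probe set the order of these differences turned: 0.16 ± 0.28 in clamped and 0.49 ± 0.28 in basal mice, and the interval in basal mice reached 1.06.

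Trib1 was lower after palm oil by a similar amount in both states, -0.16 ± 0.12 in clamped and -0.17 ± 0.12 in basal mice. Averaged over the states the difference was -0.17 ± 0.09 (unadjusted p = 0.0575, limma adjusted p = 0.999), with an interval of -0.34 to 0.01. The receptor gene Insr differed by 0.05 ± 0.09 in clamped and 0.06 ± 0.09 in basal mice, and Foxo1 by 0.07 ± 0.12 in clamped and -0.0050 ± 0.12 in basal mice. Akt2 differed by -0.16 ± 0.10 in clamped and 0.08 ± 0.10 in basal mice.

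The interaction, the clamp difference of palm oil mice minus that of control mice, had an unadjusted p under 0.05 for 1 member of 10, Grb10 (0.45 ± 0.19, limma unadjusted p = 0.0251, adjusted p = 1.00). Of all 22180 genes 773 had such a p, against the 1109 that uniform p-values would give. Grb10 averaged 1.80 ± 0.23 in palm oil clamped and 1.62 ± 0.22 in control clamped livers, and 1.53 ± 0.26 in palm oil basal and 1.80 ± 0.36 in control basal livers (SD).

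Other genes of the pathway were described through a list of 72, of which 65 were measured and 7 are not analysed here. Under the clamp 9 of 65 rose and 6 fell in palm oil mice (23.1%), and 11 rose and 5 fell in control mice (24.6%), against 7.57% of all genes called in palm oil mice and 8.75% in control mice. All genes include many dim ones, with a median gene mean of 1.83, and shares among genes of like brightness were not computed. The list was also chosen with earlier results of these data known. The median difference of the list was 0.09 in palm oil mice and 0.03 in control mice, against -0.02 over all genes in each. None of the 65 was called in palm oil against control or in the interaction. Without the 12 arrays high in acinar markers the count in palm oil mice was 7.

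Among the 13 measured substrates and adaptors, Grb2, which links receptors to the Ras pathway, rose in both groups, by 0.45 ± 0.14 in palm oil mice and 0.51 ± 0.15 in control mice. No other substrate or adaptor passed. Of 6 genes of PI3-kinase and PDK1, Pik3r2, a second regulatory subunit, fell in palm oil mice (-0.52 ± 0.16, limma adjusted p = 0.0471) and none was called in control mice.

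Of 13 genes of AKT partners, the mTOR complexes and AKT substrates, 2 rose and 1 fell in palm oil mice and 3 rose and 1 fell in control mice. Rictor, the defining subunit of the mTOR complex 2 that phosphorylates AKT, rose by 0.75 ± 0.14 in palm oil mice (adjusted p = 4.31e-04) and by 0.71 ± 0.16 in control mice (0.00312). Palm oil clamped livers read 4.93 to 5.52 for Rictor, against 3.68 to 4.87 in palm oil basal livers, and control clamped livers read 5.01 to 5.55, against 3.95 to 5.21 in control basal livers, so that the control groups overlapped. Rheb, the small GTPase that activates mTOR complex 1, rose by 0.40 ± 0.10 in palm oil and 0.50 ± 0.12 in control mice. Mtor, the kinase of both complexes, fell by 0.35 in palm oil and by 0.26 in control mice on the log2 scale. Gsk3b, a kinase that AKT inhibits, rose in control mice (0.39 ± 0.11). In palm oil mice Gsk3b averaged 6.63 in clamped and 6.43 in basal livers and was not called.

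Among 14 inhibitors of the pathway, 2 rose and 2 fell in palm oil mice and 3 rose and 2 fell in control mice. Socs3, a cytokine-induced protein that binds the insulin receptor and blocks its substrates, rose by 1.98 ± 0.28 in palm oil mice (adjusted p = 6.59e-06) and 2.25 ± 0.32 in control mice (7.44e-06). Palm oil clamped livers read 4.94, 5.90 and 7.10 for Socs3 (lowest, median, highest), against 3.17, 4.10 and 4.84 in palm oil basal livers. The phosphatase gene Ptpn2 rose by 1.03 ± 0.18 in palm oil and 1.34 ± 0.20 in control mice, and Ptpn1, which encodes the insulin receptor phosphatase PTP1B, rose in control mice by 0.82 ± 0.20. In palm oil mice Ptpn1 averaged 4.14 in clamped and 3.64 in basal livers and was not called. Ptprf, a receptor phosphatase, fell in palm oil mice (-0.47 ± 0.10) and in control mice (-0.66 ± 0.11).

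Of 19 genes, FOXO factors and targets together with the FOXO regulator Sirt1, 4 rose and 2 fell in each gavage group. Sirt1 was among the 4 that rose in each, and the best-known targets did not move together. Igfbp1, which encodes a secreted protein that binds insulin-like growth factors, rose by 3.80 ± 0.32 in palm oil mice (13.9-fold, adjusted p = 2.82e-10) and 3.81 ± 0.36 in control mice. Igfbp1 in palm oil clamped livers read 8.84, 9.86 and 10.85 (lowest, median, highest), against 5.25, 5.85 and 6.98 in palm oil basal livers. In control clamped livers Igfbp1 read 8.57, 9.94 and 10.34, against 4.11, 6.14 and 7.41 in control basal livers, and the groups overlapped after neither gavage. G6pc, the catalytic subunit of glucose-6-phosphatase, fell in palm oil mice (-1.81 ± 0.47, adjusted p = 0.0113) and in control mice (-2.44 ± 0.53, 0.00231). These falls were of group means, and the groups overlapped after either gavage. Palm oil clamped livers read 4.13 to 8.45 for G6pc (SD 1.46), against 7.46 to 8.83 in palm oil basal livers (SD 0.46). Control clamped livers read 3.85 to 8.54 (SD 1.52), against 7.26 to 8.44 in control basal livers (SD 0.39). The highest control clamped liver thus lay above every control basal one. Pck1, the phosphoenolpyruvate carboxykinase of gluconeogenesis, differed by 0.09 ± 0.09 in palm oil and -0.05 ± 0.10 in control mice and was called in neither. Txnip, an arrestin-like regulator of glucose uptake, fell in palm oil mice (-0.81 ± 0.15) and in control mice (-1.17 ± 0.17). Bcl6, a transcriptional repressor, rose in control mice by 1.49 ± 0.32. In palm oil mice Bcl6 averaged 6.48 in clamped and 5.84 in basal livers and was not called.

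**Figure D4:**
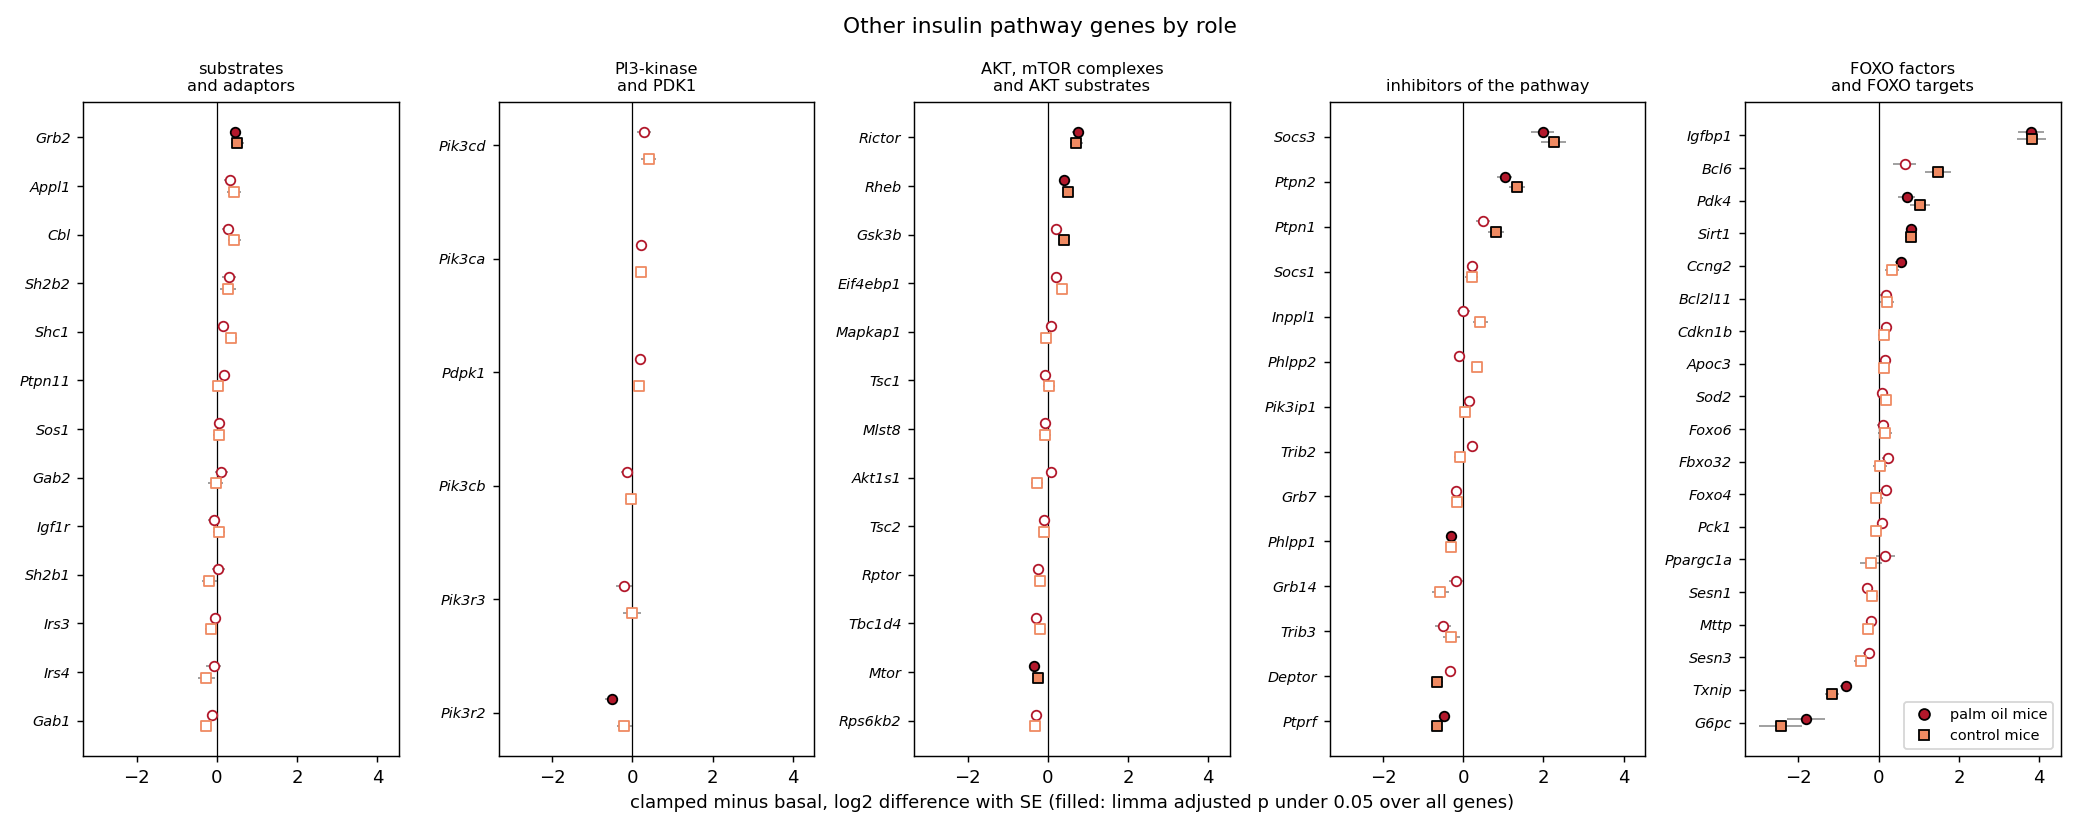
Clamped minus basal log2 difference (x axis) with SE for the 65 other pathway genes (rows), by role (panels). Circles are palm oil mice and squares control mice, and filled symbols have a limma adjusted p under 0.05 over all genes. Igfbp1 and Socs3 lie farthest to the right and G6pc farthest to the left in both gavage groups.

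Among mice of the same group the members did not vary alike. Insr divided the basal arrays by label number: the 7 arrays numbered 44 or higher read 7.10 to 7.43, against 7.49 to 7.70 in the other 9, with no overlap, and palm oil and control mice lay in both parts. The share of all genes that separate these parts was not computed, so the separation is not shown to be particular to Insr. Pik3r1 averaged 6.63 ± 0.21 in the 7 high-numbered arrays and 7.00 ± 0.16 in the other 9 (SD, as in the next 2 sentences). Akt2 averaged 6.46 ± 0.20 and Akt1 4.61 ± 0.19 in the high-numbered arrays, against 6.69 ± 0.11 for Akt2 and 4.86 ± 0.17 for Akt1 in the others. The members that moved under the clamp were closer between these parts, with 4.98 ± 0.46 against 4.80 ± 0.37 for Irs1, 4.91 ± 0.56 against 5.002 ± 0.43 for Irs2 and 4.96 ± 0.19 against 4.94 ± 0.23 for Trib1. This division of the basal arrays was noticed in the data.

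All 45 pairs of members were correlated over the 32 arrays after each group's mean was removed, with p-values from 100000 permutations within groups, two-sided, and adjusted over the 45. The permutations mixed high-numbered and other basal arrays, so a division between these parts that 2 genes share also lowers their p. No pair passed in Pearson's r and 2 passed in Spearman's rho. Insr and Akt1 had r = 0.54 (adjusted permutation p = 0.0648) and rho = 0.58 (0.0263). Within the high-numbered basal arrays that r was -0.23, within the other basal arrays 0.05 and within the clamped arrays 0.53, while over all 16 basal arrays it was 0.58. Akt1 and Akt2 had r = 0.55 (adjusted permutation p = 0.0675) and rho = 0.58 (0.0263), with 0.83, 0.20 and 0.39 within the same 3 parts. Without the 2 arrays farthest from the median, r was 0.61 for Insr and Akt1 and 0.63 for Akt1 and Akt2.

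Irs2 and Trib1, which both rose under the clamp, also varied together among mice of a group, short of the threshold. They had r = 0.56 (permutation p = 0.0029, adjusted 0.0648) and rho = 0.53 (p = 0.0041, adjusted 0.0619), and r = 0.50 without the 2 farthest arrays. Within the clamped arrays r was 0.69, within the other basal arrays 0.60 and within the high-numbered basal arrays -0.13.

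**Figure D5:**
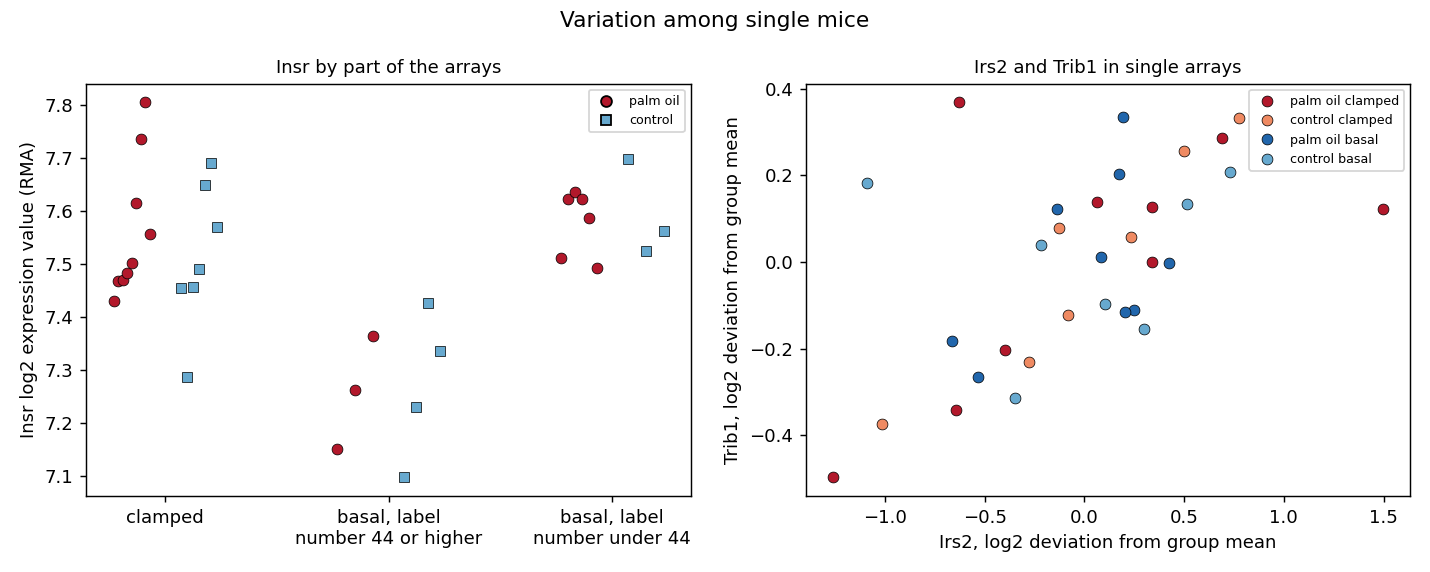
Left: log2 expression value of Insr (y axis) in clamped arrays, basal arrays numbered 44 or higher and basal arrays numbered under 44 (x axis), with palm oil mice as circles and control mice as squares. Right: log2 deviation from the group mean of Irs2 (x axis) and Trib1 (y axis), each point a mouse coloured by group. On the left the high-numbered basal arrays, at 7.10 to 7.43, lie below all other basal arrays; on the right r = 0.56 over 32 mice.

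Predicted models, Rik clones, small RNAs and similar entries without a gene name were left out of a search for genes like each member. Among the rest, the genes whose deviations followed each member most closely were found by Pearson's r over the same 32 arrays, as a description. For Irs2 they were Sik1 (r = 0.71), Crem (0.69) and Zfp36l1 (0.69), for Trib1 Tcp11l2 (0.66), Lrmda (0.64) and Zfp36 (0.63), and for Irs1 Ank (0.78), Slc25a42 (0.69) and Scpep1 (0.69). For Insr they were Ube2k (0.83), Fga (0.83) and Taf1 (0.82), and for Pik3r1 Gpbp1 (0.84), Alg5 (0.81) and Aifm1 (0.81). Akt1 was followed by Kif3a (0.76), Cars (0.73) and Actr3 (0.70), and Akt2 by Ganab (0.77), Supt20 (0.77) and Tet3 (0.77). Foxo1 was followed by Pptc7 (0.77), Lpin1 (0.74) and Atp1b1 (0.68), Foxo3 by Usp2 (0.76), Prodh (0.76) and Sephs2 (0.76), and Grb10 by Olfr1262 (0.76), Osbpl7 (0.67) and Cysltr2 (0.67). No other member stood among the 3 closest genes of any member. These points share the arrays' differences in spread, and Insr and Pik3r1, which differed between the parts of the basal arrays, had the highest values of r.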

How the data were processed

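Total RNA of mouse liver was amplified, labelled with biotin and hybridised to arrays, per the labels' protocols. Per the submitters' processing notes the authors ran RMA, in version 1.3.0.187 of Affymetrix Expression Console. The deposited log2 values were used unchanged. RMA removes background, brings the arrays to a common scale and condenses each probe set to a single value, and it compresses low values. Of 41345 probe sets, 23521 had 1 gene symbol in the platform annotation, 1814 had several and 16010 were not listed. The 23521 gave 22180 genes, 1082 of them with several probe sets, of which the one with the highest mean was taken.

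Groups came from the sample titles. A single limma model (version 3.58.1 in R 4.3.3, lmFit then eBayes) held the 4 group means of the 32 arrays and left 28 residual degrees of freedom. It was read in 6 contrasts and 1 added later. In each contrast p-values were Benjamini-Hochberg adjusted across the 22180 genes, and 0.05 was the threshold. Unless marked SD, values after ± are SE. Each array is a separate mouse, and the number of arrays limits the precision. The functions were tested on simulated data.

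The 10 members and all lists were chosen with earlier results of these data known. All members are described. Other pathway genes are named where they were called, up to 3 for each role and contrast by size, with Igfbp1, G6pc and Pck1 in any case. Mtor, Ptprf and Txnip in control mice, and Sirt1 in both gavage groups, were named outside this rule, after their values were seen. Promoters are RefSeq sequences of GRCm38.p6, searched on both strands. Alternatives changed the scaling, the prior, array weights, the filter on dim genes, the probe set, the samples fitted and the test, and left out each array in turn. The second Irs1 probe set and the averaged clamp contrast were added after the data were seen.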

Additional observations from a re-analysis of the deposited data

Results flagged for a closer look

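Each of the 10 genes was looked at for a mouse far from the rest of its group, in 40 groups of 7 or 9 mice, of which chance alone marks about 1 in 20. A single value stood out: Grb10, the inhibitory adaptor of the receptor, read 2.553 in control basal replicate 4, against 1.889 in the next mouse and 1.468 in the lowest. The gap was 0.612 of the group's range, above the critical share of 0.568 for 7 mice. That array is among the 7 basal arrays with a label number of 44 or higher. Without that mouse the Grb10 interaction was 0.32, the clamped minus basal difference in control mice was -0.05 in place of -0.18, and the palm oil minus control difference in basal mice was -0.15 in place of -0.27, and none of these 3 was called with or without it.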

How the results depend on the processing

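No called direction of a member turned under any alternative, and the palm oil comparisons and the interaction had 0 members and 0 other pathway genes called under all of them. Trib1 was called under the clamp in every alternative. Of 10 members under the clamp in control mice, 2 were called. The count was 4 among genes brighter than the median (Irs2 and Akt2 passed as well). It was 1 with the mean of all probe sets, the second Irs1 probe set, the compared groups alone, the exact rank sum test, without the 7 basal arrays numbered 44 or higher, with these as a block, with the acinar marker mean as a term, and without the 12 arrays over 6 in acinar markers. In each of these 8 cases Irs1 was the gene lost, and the cause was not tested. Leaving out single arrays gave 1 to 3, with 1 without control basal replicate 5 or 6 or control clamped replicate 5 or 7. In palm oil mice 2 were called, 1 without the arrays over 6 in acinar markers, and 2 without any single array. Irs1 passed there with the compared groups alone (-0.52, adjusted p = 0.0345) and the mean of all probe sets (-0.73, 0.0283), and Irs2 passed in control mice with array weights (0.98, 0.0478). Averaged over the gavages 3 were called, and 3 to 4 without single arrays.

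Of the other pathway genes 16 were called in control mice, 9 by the exact rank sum test and 13 to 18 without single arrays. In palm oil mice 15 were called, 7 without the arrays over 6 in acinar markers and 10 to 15 without single arrays. Averaged, 31 were called, 20 with the acinar term, 19 without those arrays and 26 to 33 without single arrays.

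Replicate numbers were not shown to pair the mice: same-numbered arrays of 2 groups correlated by -0.23 to 0.29, and at most 5 of 7 pairs were over 0.1. These 5 were pairs of palm oil basal and control basal arrays, of which 2 of 7 correlated best with the array of their own number. With the replicate block the members called were 2 in control mice, 2 in palm oil mice and 4 averaged, since Pik3r1 (0.21, adjusted p = 0.0366) passed too.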

Other observations

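On the Irs1 probe set with the highest mean, Irs1 and Irs2 varied together among basal mice and not among clamped mice. The correlation of the second Irs1 probe set with Irs2 was not computed, so this pattern is not shown to hold on both. After the group means were removed, their r was 0.72 over the 16 basal arrays (0.88 in the 7 high-numbered arrays and 0.63 in the other 9) and -0.01 over the 16 clamped arrays. Over all 32 arrays r was 0.24 (permutation p = 0.2, adjusted 0.538) and rho 0.34 (permutation p = 0.071, adjusted 0.245), and r was 0.34 without the 2 farthest arrays. The difference between basal and clamped mice was seen in the data and was not tested.

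With palm oil and control mice averaged, further pathway genes passed under the clamp, 19 rising and 12 falling of 65 (47.7%). Of all genes 16.9% were called in this contrast (8.39% rose and 8.46% fell), a share that takes in many dim genes. The list was chosen with earlier results of these data known, and the contrast was added after the data were seen. The adaptors Appl1 (0.37 ± 0.11) and Cbl (0.35 ± 0.11), the PI3-kinase catalytic gene Pik3ca (0.22 ± 0.06) and Pdpk1, the kinase that activates AKT (0.18 ± 0.06), rose, and Rps6kb2, a ribosomal S6 kinase gene, fell by 0.31 on the log2 scale (limma, SE, n = 16 and 16).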
